A study of Mus musculus with 14 samples.

Results

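The genes described here are 9 core genes of the Hedgehog pathway, out of 21938 protein-coding genes annotated on the assembled mouse chromosomes. They were chosen by name, as the 3 ligands Shh, Ihh and Dhh, the receptor Ptch1, the signal transducer Smo, the ligand-binding antagonist Hhip, and the transcription factors Gli1, Gli2 and Gli3. For each gene, the H3K27me3 sites were collected that overlapped the window of 1 kb either side of its transcription start sites (TSSs), its gene body, or the 50 kb on either side of the body. Of the 153983 sites of the deposited list, 172 fell in the bodies or flanks of these genes, 43 at the ligands and 129 at the other 6 genes.

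The sites came from chromatin immunoprecipitation and sequencing (ChIP-seq) of immortalised mouse embryo fibroblasts (iMEF) from mice with floxed Ash2l alleles and a Cre-ER recombinase under a broadly active hybrid promoter. In the study, exon 4 of endogenous Ash2l had been deleted and the cells lived on a lentiviral fusion of FKBP12F36V, HA tags and human ASH2L (FKBP-HA2-ASH2L), in control and treated cells alike. The study used 1 clone, NG3, for these libraries. The compound dTAG brings the fusion protein into contact with a ubiquitin ligase, and the protein is then degraded. There were 12 H3K27me3 libraries, 2 each without dTAG and after 30 min, 2 h, 4 h, 8 h and 16 h of dTAG, plus 2 input libraries, 1 from untreated cells and 1 from cells treated for 16 h.

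One list of sites over all libraries was analysed. It gives positions and no read count, score or library of origin. The 6 groups and their replicates could therefore not be told apart, no test between control and treated cells was possible, and every value below has no replicates. The depth behind a site is unknown, so a stretch with no listed site is not shown to lack the mark. The list covered 5.93% of the assembled chromosomes, with a median site width of 455 bp. The label of fibroblasts was looked at through 15 fibroblast markers listed for this purpose. Of these, 5 had a site within 1 kb of a TSS (Col1a1, Vim, Pdgfra, Lum and Prrx1), 0.336 to 0.534 kb wide. No marker had a site of 2 kb or more there, against 16.1% of all protein-coding genes. The 5 of 15 (33.3%) were near the 31.5% of all protein-coding genes with a site within 1 kb of a TSS, so this count neither bears out the label nor goes against it. The median covered share of the body and 50 kb on either side was 0.712% for the markers and 3.81% for all protein-coding genes. No test was made on these differences. The list holds no RNA values, so expression of the markers could not be checked.

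Hedgehog ligands are secreted, lipid-modified proteins that pattern the embryo. When a ligand binds Patched1, the block on Smoothened at the primary cilium is released and the Gli factors switch from repressing to activating their targets, among which are Gli1, Ptch1 and Hhip themselves. Mesenchymal cells such as fibroblasts commonly receive the signal, while the ligands are made by restricted sources such as the notochord and floor plate (Shh), cartilage and gut (Ihh) and the testis and Schwann cells (Dhh). H3K27me3 is set by Polycomb repressive complex 2 (PRC2) and covers many silent genes of development, often at CpG-rich start sites.

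Promoter sequences were matched for 7 of the 9 genes, all but Shh and Gli1. The 250 bases before the RefSeq TSS are shown for 5 of them (GRCm38.p6, RefSeq, 5′ to 3′ on the strand of the gene), with each CpG in capitals, to set 3 promoters that lay inside an H3K27me3 site (Ihh, Dhh and Hhip) beside a Ptch1 and a Gli3 promoter that lay outside every site. The printed Ptch1 sequence belongs to a start site 7863 bp inside the gene, and that of Gli3 to one 488 bp downstream of the outermost start site, the most 5′ TSS of the gene.
Ihh, chr1:74951673-74951922, minus strand: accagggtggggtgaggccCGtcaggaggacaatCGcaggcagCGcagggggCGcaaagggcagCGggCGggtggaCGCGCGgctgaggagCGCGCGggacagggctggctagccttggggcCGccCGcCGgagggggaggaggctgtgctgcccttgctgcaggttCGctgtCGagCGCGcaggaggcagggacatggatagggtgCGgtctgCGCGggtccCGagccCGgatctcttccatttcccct
Dhh, chr15:98898541-98898790, minus strand: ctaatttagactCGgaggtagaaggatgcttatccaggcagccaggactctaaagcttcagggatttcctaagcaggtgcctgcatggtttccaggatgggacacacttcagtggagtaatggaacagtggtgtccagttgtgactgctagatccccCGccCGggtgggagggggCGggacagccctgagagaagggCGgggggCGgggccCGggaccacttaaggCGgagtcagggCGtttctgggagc
Hhip, chr8:80058009-80058258, minus strand: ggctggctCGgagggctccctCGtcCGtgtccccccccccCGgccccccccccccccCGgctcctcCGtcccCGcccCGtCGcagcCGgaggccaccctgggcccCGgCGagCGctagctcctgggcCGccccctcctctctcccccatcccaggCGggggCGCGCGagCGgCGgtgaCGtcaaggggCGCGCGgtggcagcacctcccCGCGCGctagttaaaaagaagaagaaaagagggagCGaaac
Ptch1, chr13:63565736-63565985, minus strand: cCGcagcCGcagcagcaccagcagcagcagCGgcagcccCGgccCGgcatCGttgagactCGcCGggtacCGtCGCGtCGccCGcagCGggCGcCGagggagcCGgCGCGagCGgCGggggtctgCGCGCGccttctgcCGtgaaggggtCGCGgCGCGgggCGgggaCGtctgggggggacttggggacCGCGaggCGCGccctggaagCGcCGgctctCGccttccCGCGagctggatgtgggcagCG
Gli3, chr13:15463473-15463722, plus strand: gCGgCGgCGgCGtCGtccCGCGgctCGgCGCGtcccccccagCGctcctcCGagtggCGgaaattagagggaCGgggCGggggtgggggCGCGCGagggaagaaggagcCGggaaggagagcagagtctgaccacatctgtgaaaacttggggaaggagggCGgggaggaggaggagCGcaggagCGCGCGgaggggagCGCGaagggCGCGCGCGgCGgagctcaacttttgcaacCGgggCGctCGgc

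CpG content did not order these sequences by their sites. The Ihh, Dhh and Hhip promoters, each covered over 100% of the printed bases, held 24, 9 and 28 CpG. The uncovered promoters of Ptch1, Gli3, Gli2 and Smo held 41, 34, 22 and 15. For scale, the median over 32851 RefSeq promoters was 6, and as many CpG as in the Ptch1 sequence were found in 1.09% of promoters, against 40.3% for the Dhh sequence. Measured from the RefSeq TSS, the nearest site was 879 bp away at Gli2, 2297 bp at Smo, 3243 bp at Ptch1 and 5558 bp at Gli3.

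At the start sites, 7 of the 9 genes had an H3K27me3 site within 1 kb, against 31.5% of all protein-coding genes. All 3 ligands were among them, as were Ptch1, Hhip, Gli1 and Gli2, while Smo and Gli3 had none. Sites of at least 2 kb were found there at 6 of the 9 genes (all genes: 16.1%), again all 3 ligands, with Ptch1, Hhip and Gli1. Gli1 counted only through a start site 4919 bp inside the gene, of a transcript with a retained intron. With TSSs of protein-coding transcripts alone, 5 genes had a site of that width. The outermost start site itself lay inside a site in 5 of 9, which were the 3 ligands, Ptch1 and Hhip (all genes: 16.9%). In the gene body, 8 of 9 had a site, all but Smo, against 46.7% of all genes. The whole body was covered in 2 of 9, Shh and Ihh, against 2.19% of all genes. All 9 had a site in the body or within 50 kb, where the share of all genes was 88.0%, so this last count was near the background. These are counts over named genes in a single list, and no test was made on them.

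**Figure D1:**
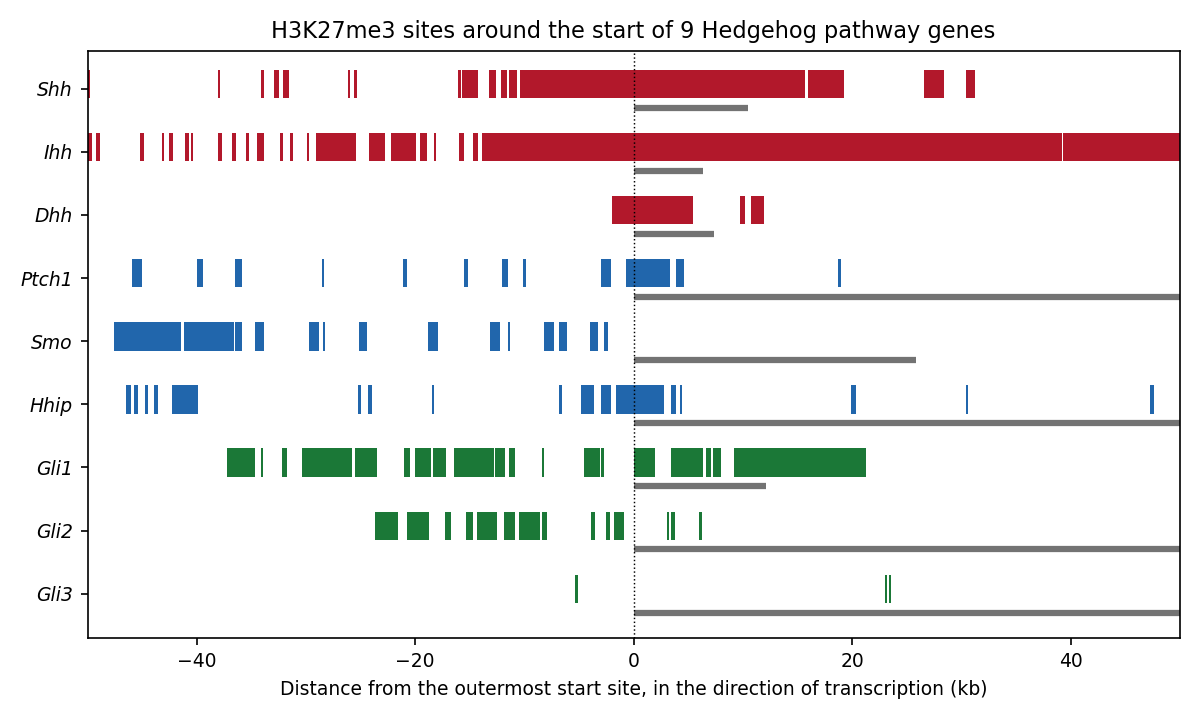
H3K27me3 sites (coloured blocks) within 50 kb of the outermost start site of each gene (dotted line), with distance in kb in the direction of transcription on the horizontal axis, 1 row per gene and the gene body as a grey bar; red marks ligands, blue Ptch1, Smo and Hhip, and green the Gli genes. Blocks run across the whole bodies of Shh and Ihh, whereas Smo has blocks on its upstream side alone and Gli3 has 1 upstream block, 5070 bp away.

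Shh, the ligand of the notochord, floor plate and limb bud (ENSMUSG00000002633), lies at chr5:28456815-28467256 on the minus strand. A site of 24.1 kb, chr5:28451555-28475661, ran from 8405 bp upstream of its TSS to 15701 bp downstream and so past the end of the gene. It covered the whole body of 10.4 kb, all coding, UTR and intron bases included. Only 0.866% of protein-coding genes had a site as wide within 1 kb of a TSS. A second site of 3.25 kb followed on the downstream side, 15975 to 19228 bp from the TSS. Joining sites less than 1 kb apart made a stretch of 32.4 kb. Over the body and 50 kb on either side, 17 sites covered 37.6 kb, or 34.1% of bases. The neighbour Rbm33 had no site within 1 kb of a TSS or in its body.

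Ihh, the ligand of growing cartilage and gut (ENSMUSG00000006538), had the widest site and the highest cover of the 9 genes. Its body, chr1:74945315-74951672 on the minus strand, lay within a site of 53.2 kb at chr1:74912412-74965590, which began 13.9 kb upstream of the TSS and ended 39.3 kb downstream. A width of that size at a TSS was found in 0.160% of protein-coding genes. The next site, 23.4 kb wide, began 39313 bp downstream of the TSS, directly after the end of the first at 39260 bp, and 99.9% of the downstream 50 kb was covered, against 55.5% of the upstream 50 kb. With sites less than 1 kb apart joined, the stretch reached 129 kb. Over body and flanks 79.0% of bases were covered, a share reached by 0.451% of protein-coding genes. The neighbour Cfap65 shared the 53.2 kb site, with 99.8% of its body covered, so the site is not one of Ihh alone.

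Dhh, the ligand of the testis and of peripheral nerve (ENSMUSG00000023000), had a smaller and isolated site. The gene lies at chr15:98891152-98898540 on the minus strand, and a site of 7.40 kb, chr15:98893090-98900485, ran from 1945 bp upstream to 5450 bp downstream of the TSS. All coding bases were inside it, as were all introns, but only 37.5% of the UTR bases were. In all, 73.8% of the body was covered. Just 2 further sites, of 0.457 and 1.21 kb and both downstream, were listed within 50 kb. The covered share of body and flanks, 8.44%, was reached by 36.4% of protein-coding genes. The site also overlapped the start of Rhebl1, covering 45.7% of its TSS windows, while the neighbours Kmt2d, Lmbr1l and Tuba1b had no site within 1 kb of a TSS.

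Ptch1, the receptor that holds Smoothened in check (ENSMUSG00000021466), lies at chr13:63508328-63573598 on the minus strand and had 10 annotated start sites. Of these, the 2 most upstream were inside a site of 4.02 kb, chr13:63570304-63574321, which ran from 723 bp upstream to 3294 bp downstream of the outermost one. The windows of those 2 start sites were covered over 86.2% and 93.1%. The other 8 start sites, from 7863 bp inside the gene onwards, had no site within 1 kb, the closest of them being 3243 bp away. Cover of the body of 65.3 kb was 6.62%, from that site and 2 narrow intronic ones of 0.770 and 0.253 kb. The widest site of the region, 5.09 kb, lay past the gene, 84.2 to 89.3 kb downstream of the outermost start site. Of the coding bases, 4.59% were covered. The neighbour Fancc had a site of 0.701 kb that overlapped 0.113% of its TSS windows.

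Smo, the transducer that Patched1 controls (ENSMUSG00000001761), was the 1 gene of the 9 with no site in its body at chr6:29735503-29761365, on the plus strand, and it had none in the 50 kb downstream. All 14 sites of its region were upstream and covered 37.8% of the upstream 50 kb. The nearest, 0.386 kb wide, ended 2303 bp before the TSS. The widest, of 6.08 and 4.62 kb, lay 47.5 to 36.6 kb upstream, at the neighbour Tspan33, whose TSS windows were covered over 47.6%. On the other side, the TSS windows of Ahcyl2 were covered over 4.62% of bases, by sites of at most 0.453 kb. These sites lay beyond the 50 kb downstream of Smo.

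Hhip, which binds Hedgehog ligands at the cell surface and so limits the signal (ENSMUSG00000064325), lies at chr8:79965851-80058006 on the minus strand. A site of 4.41 kb, chr8:80055223-80059628, spanned the TSS from 1622 bp upstream to 2783 bp downstream. A second annotated start, 67657 bp into the gene and not of a coding transcript, had no site within 1 kb. Hhip had the most sites of the 9 genes, 21 in the body and 48 with the flanks, but they were narrow. Their median width was 336 bp, against 455 bp in the whole list, and 33 were under 500 bp. The smallest width in the list, 200 bp, was that of 11 of the 48, and of 19442 of all 153983 sites. Together the Hhip sites covered 11.5% of the body and 40.0% of the coding bases. No other protein-coding gene had a start site within 50 kb.

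Gli1, an activator that is itself a target of the pathway (ENSMUSG00000025407), had the highest covered share of the body outside the ligands. In that body, chr10:127329882-127341974 on the minus strand, 5 sites covered 72.9% of bases and 93.1% of the coding bases. The first site, 1.84 kb wide, began 77 bp downstream of the outermost start site, which was thus just outside it. The second, of 2.92 kb, lay 3406 to 6328 bp downstream. The widest, of 12.1 kb at chr10:127320658-127332766, covered the end of Gli1 and all of the next gene, Arhgap9. Of the 4 start sites, 2 were inside a site, and the windows of all 4 were covered over 45.1% to 100%. Upstream, Inhbe and Inhbc had 80.7% and 100% of their TSS windows covered, and R3hdm2 had 10.0%. Mars, Ddit3 and Mbd6 on the downstream side had no site within 1 kb of a TSS. Cover over body and flanks was 34.0%, next to 34.1% for Shh.

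Gli2, the main activator of the family in many tissues (ENSMUSG00000048402), was at the edge of the rule. The gene, chr1:118834132-119053619 on the minus strand, had 1 site that reached into a window of 1 kb. The site, 0.938 kb wide, ended 879 bp upstream of the outermost start site and overlapped the window by 122 bp, or 2.85% of the bases of all its TSS windows. With a window of 500 bp, or with sites of at least 1 kb alone, Gli2 had no site at its start. In the 219 kb of its body, 4 intronic sites of 0.228 to 0.369 kb covered 0.555%. Upstream, 12 sites covered 24.5% of the 50 kb, the widest being 2.06 kb.

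Gli3, the main repressor of the family (ENSMUSG00000021318), had the least cover over body and flanks. In 367 kb around chr13:15463235-15730026, on the plus strand, 6 sites covered 1.95 kb, or 0.531% of bases, and 75.9% of protein-coding genes had at least that share. The nearest site was 5070 bp upstream of the outermost start site and 0.261 kb wide. Of the 5 sites in the body, 4 were intronic and 1, of 0.222 kb, lay in coding sequence, and the widest of the 5 was 0.815 kb. The promoter of Gli3 had the highest ratio of observed to expected CpG of the 9 genes, 0.935 over 500 bp either side of the outermost start site.

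**Figure D2:**
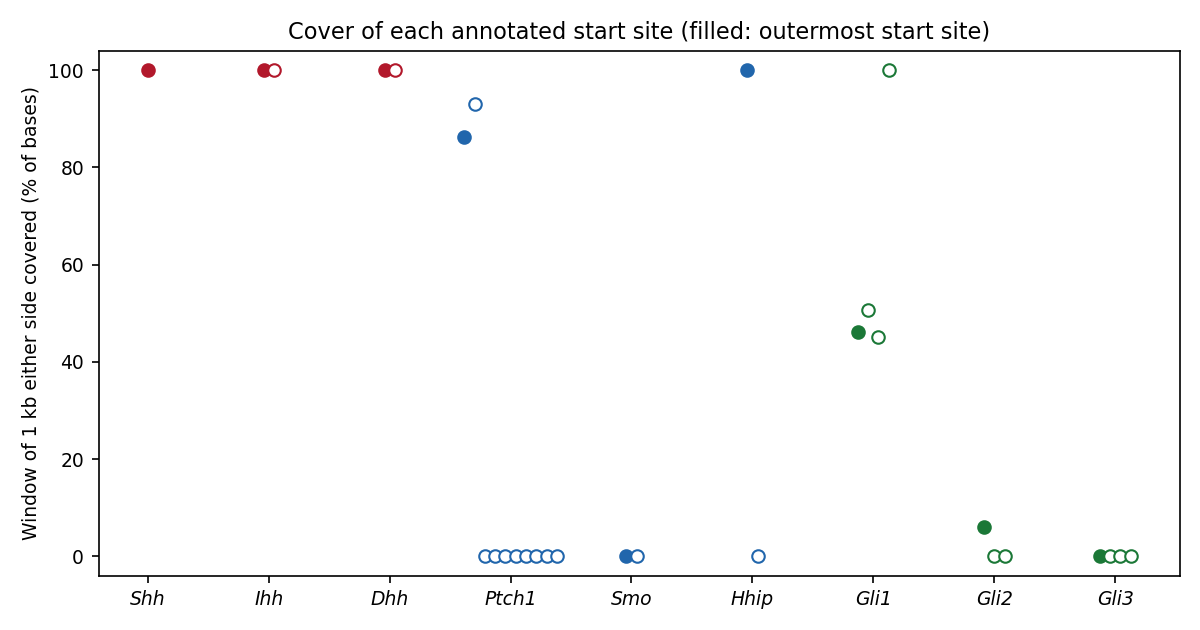
Share of the window of 1 kb either side that was covered by sites (vertical axis, percent of bases), for each annotated start site of each gene, with filled circles for the outermost start site and open circles for the others. Every start site of Shh, Ihh and Dhh is at 100%, 8 of the 10 Ptch1 start sites are at 0, and Smo and Gli3 are at 0 throughout.

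The ligands were then set beside the other 6 genes, as 3 against 6 genes that are not replicates of a condition, with no test. Over all TSS windows, the covered share was 100% for Shh, Ihh and Dhh alike. Among the others it was 63.9% for Gli1, 50.0% for Hhip, 15.4% for Ptch1, 2.85% for Gli2 and 0 for Smo and Gli3. With the sites as listed, no value of the others reached those of the ligands, and the medians were 100% and 9.14%, a difference of 90.9 percentage points, with a median of 0 over all protein-coding genes. This measure takes in every annotated start site. With TSSs of protein-coding transcripts alone, Hhip was at 100% as well, Ptch1 at 31.9% and Gli2 at 5.35%, while Gli1 fell to 45.7%. The difference of the medians was then 81.4 percentage points. With sites less than 5 kb apart joined, Gli1 was at 100%, equal to the ligands, Gli2 was at 53.3%, and the difference was 66.1 percentage points.

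Over the gene body, the median covered share was 100% for the ligands and 3.62% for the others, 96.4 percentage points apart, and 0 for all protein-coding genes. Dhh, at 73.8%, was close to Gli1, at 72.9%. The groups also differed in length, with a median body of 7.39 kb for the ligands, 78.7 kb for the others and 17.4 kb for all genes. In bases, Hhip had 10622 bp of its body covered and Shh 10442 bp, so that Hhip and Shh were close in bases and far apart in share. A span of equal length for every gene, 10 kb either side of the outermost start site, was added after the data had been seen. Its covered share was 99.9% for Shh, 100% for Ihh and 38.3% for Dhh, and 43.2% for Gli1, 36.5% for Hhip, 29.5% for Ptch1, 21.8% for Gli2, 14.1% for Smo and 1.30% for Gli3. On this scale Dhh was below Gli1, so ligands and other genes overlapped, and the medians were 74.2 percentage points apart. The median over all protein-coding genes was 1.16%.

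With 50 kb on either side of the body, the order of the genes changed again. Ihh stood at 79.0%, Shh at 34.1% and Gli1 at 34.0%, then Smo at 15.0%, Hhip at 14.1%, Ptch1 at 11.9%, Dhh at 8.44%, Gli2 at 5.30% and Gli3 at 0.531%. The ligand Dhh was thus below 4 of the other 6 genes. The medians, 34.1% and 13.0%, were 21.1 percentage points apart, beside 3.81% for all protein-coding genes. This difference depended on the flank, since it was 60.1 percentage points with 20 kb and 7.75 with 100 kb either side.

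**Figure D3:**
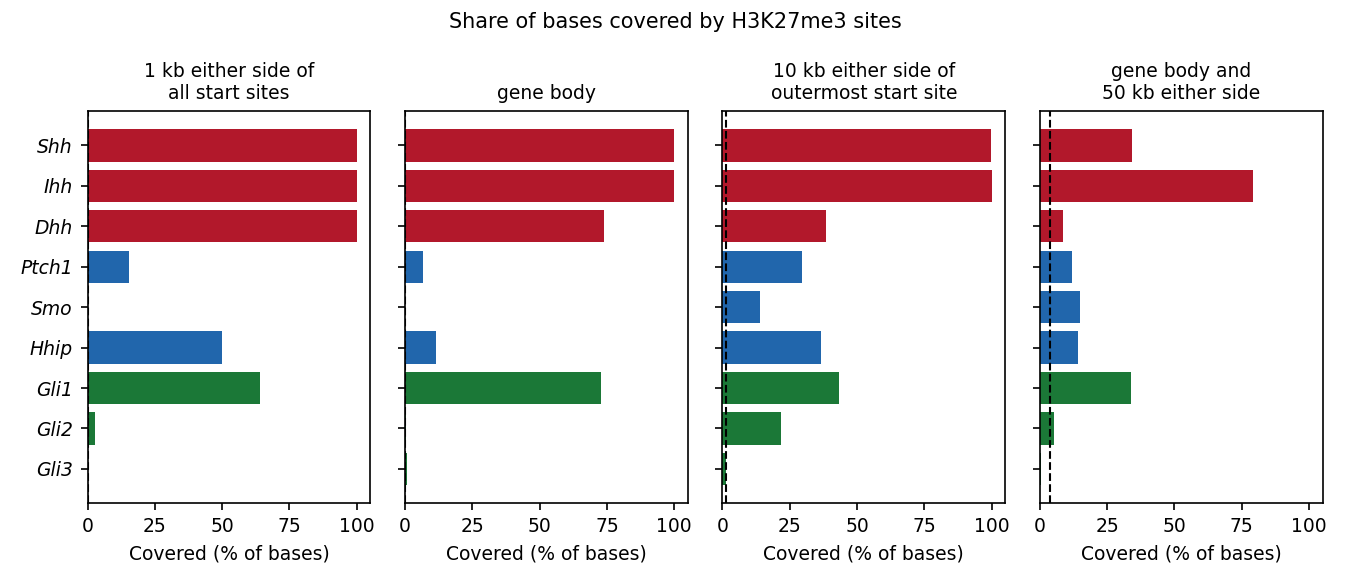
Share of bases covered by H3K27me3 sites (horizontal axes, percent) for each gene in 4 spans, from left to right the windows of 1 kb around all start sites, the gene body, 10 kb either side of the outermost start site, and the body with 50 kb either side; red bars are ligands, blue Ptch1, Smo and Hhip, green the Gli genes, and the dashed line is the median of all protein-coding genes, which is 0 in the first and second panels. The ligands fill the first panel at 100%, while in the last panel Dhh, at 8.44%, is below Gli1, Smo, Hhip and Ptch1.

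The median width was 457 bp over the 43 sites at the ligands and 478 bp over the 129 others, next to 455 bp in the whole list. The genes differed, with medians of 1210 bp at Dhh, 1180 bp at Gli1 and 810 bp at Smo, and of 234 bp at Gli3 and 336 bp at Hhip. At least 2 kb was reached by 7 of the 43 and 12 of the 129. These were 2 of 17 sites at Shh, 4 of 23 at Ihh and 1 of 3 at Dhh, and 2 of 21 at Ptch1, 2 of 14 at Smo, 2 of 48 at Hhip, 5 of 19 at Gli1, 1 of 21 at Gli2 and none of 6 at Gli3. The share of all listed sites at this width is not given here, so these counts have no background.

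Base composition at the outermost start sites was varied within both groups. Of the ligands, Ihh was CpG-rich (GC content of at least 50% and observed to expected CpG of at least 0.6 over 500 bp either side), with a ratio of 0.774, whereas Shh, at 0.552, and Dhh, at 0.480, were not. Of the others, Gli3 (0.935), Gli2 (0.676), Ptch1 (0.650) and Smo (0.601) were CpG-rich and Hhip (0.588) and Gli1 (0.540) were not, with Smo and Hhip close to the limit. Of all CpG-rich genes, 25.5% had a site within 1 kb of a TSS, against 36.3% of the remaining genes. Repeats made up 20.9% to 38.4% of the 9 regions, with Shh the highest and Ptch1 the lowest, and no region held undetermined bases.

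The short sequence GACCACCCA (TGGGTGGTC on the other strand), the consensus bound by Gli factors, was looked for on both strands within 1 kb of each outermost start site. It occurred in 1 of the 9 genes, Ptch1, and in 1.70% of all protein-coding genes. The match, in capitals below, lay 129 bp downstream of the outermost start site of Ptch1 on the minus strand, inside the 4.02 kb site.
Ptch1, chr13:63573455-63573483, minus strand: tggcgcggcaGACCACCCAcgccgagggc
None of the 7 matched promoters of 300 bases around a RefSeq TSS held it, against 0.253% of all promoters in the table. A match of these letters does not show a bound factor.

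The long upstream side of Shh was looked at because its limb enhancer, the ZRS, lies in an intron of Lmbr1. From the Shh TSS to the near end of Lmbr1, over 763 kb with Rnf32 as the 1 protein-coding gene between them, 60 sites covered 4.72% of bases. Leaving out the first 50 kb, 47 sites covered 2.81% of 713 kb, and the widest of them was 1168 bp. The body of Lmbr1, 149 kb long, held 2 sites of 369 and 200 bp, or 0.383% of bases. High cover resumed around Mnx1, a homeobox gene of motor neurons 1010 kb from the Shh TSS, with a site of 26.4 kb and a body covered over 100%.

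**Figure D4:**
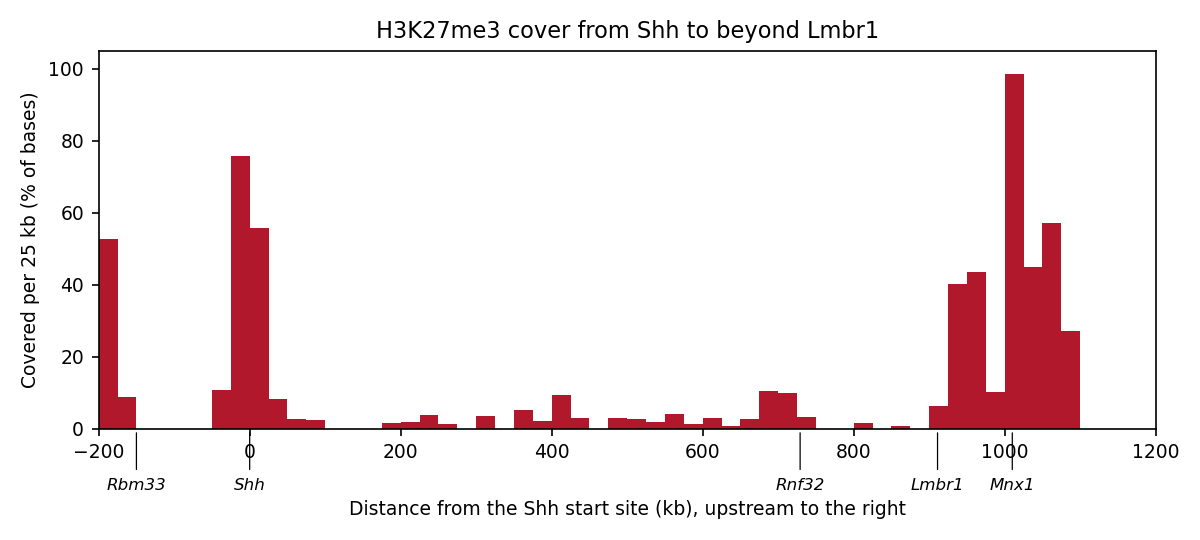
Share of bases covered by sites in bins of 25 kb (vertical axis, percent) against the distance from the Shh start site in kb (horizontal axis, upstream to the right), with the start sites of named genes marked. Cover is high at Shh, stays low across the interval up to Lmbr1 and is high again at Mnx1, where the bin starting at 1000 kb is covered over 98.6%.

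The remaining pathway was described by 53 further genes in 4 classes. Of these, 25 had a site within 1 kb of a TSS, or 47.2%, against 31.5% of all protein-coding genes. Genes that work inside the cell and at the cilium had 1 of 19, Csnk1a1, which encodes a casein kinase, with a site of 0.200 kb over 3.12% of its TSS windows. Sufu, which holds Gli proteins in the cytoplasm, and Kif7, the cilium motor of the pathway, had none there, like Smo. Ligand processing and release had 6 of 8, among them Scube1, a secreted protein that binds the ligands, with a site of 28.0 kb. Co-receptors and surface proteins had 5 of 7. The co-receptors Boc and Gas1 had none.

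Genes known as Hedgehog targets in at least one tissue had 13 of 19 with a site within 1 kb of a TSS, against 31.5% of all protein-coding genes. A site of 2 kb or more was found there in 12 of the 19, against 16.1% of all protein-coding genes. Foxf1, Foxa2, Olig2 and Hand2, factors of gut mesenchyme, floor plate, motor neuron progenitors and limb and heart, had TSS windows and bodies covered over 100%, as at Shh and Ihh, with sites of 24.3, 17.9, 33.9 and 12.9 kb. At the other end, Arl13b, a cilium protein, Grk2, a kinase, and the targets Bcl2 and Grem1 had no site in the body or within 50 kb. All 9 core genes had such a site, but so did 49 of the 53 other pathway genes and 88.0% of all protein-coding genes.

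**Figure D5:**
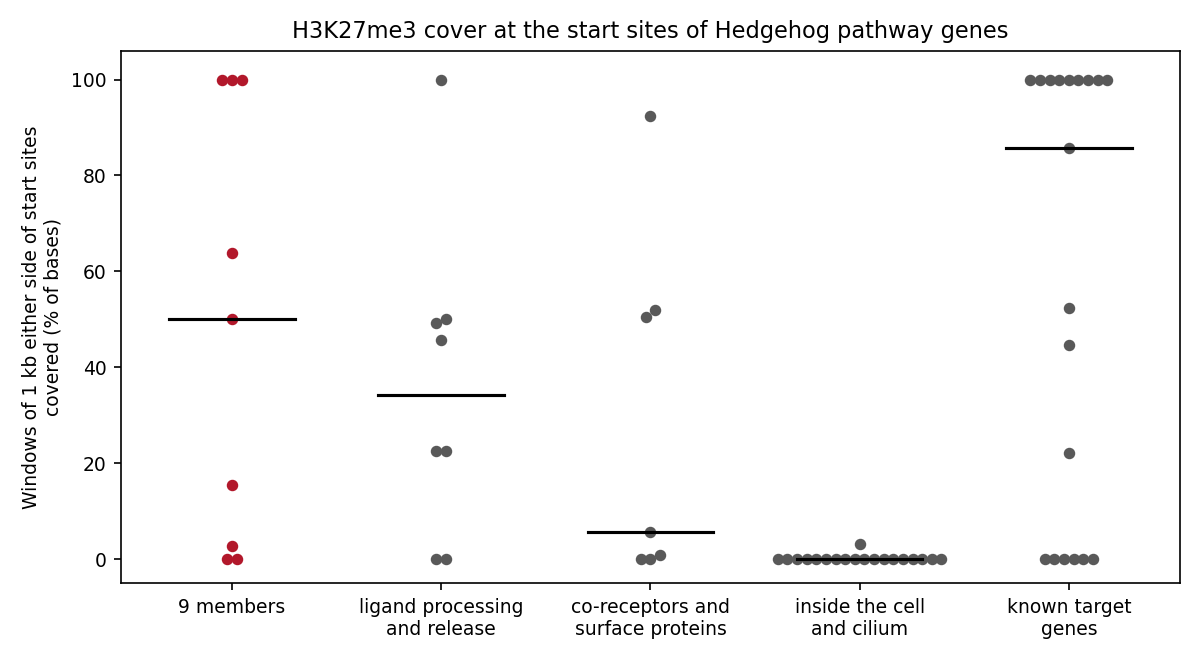
Share of the TSS windows covered by sites (vertical axis, percent of bases) for each gene, as 1 point per gene, in the 9 core genes and 4 classes of other pathway genes, with a black line at each class median. The medians are 50.0% for the core genes, 34.2%, 5.77% and 0 for the first to the third of the other classes, and 85.8% for known target genes.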

How the data were processed

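The authors trimmed the ChIP-seq reads, aligned them with BWA to mm10, filtered them with samtools after ENCODE, merged replicates with Picard and called broad peaks with MACS. Versions, thresholds and the rule that combined peaks over libraries are not given in the sources used here. The deposited list holds positions (chromosome, start, end) and no value per library. Starts were read as counted from 0, since the smallest difference of end and start was 200, and are printed from 1. No site overlapped another or passed a chromosome end. Genes and TSSs came from the GENCODE annotation of GRCm38.p6 supplied with the genome, an earlier release than the study used, and promoter sequences from RefSeq. Python 3.11.15, numpy 2.4.6, pysam 0.24.0 and matplotlib 3.10.9 were used, and minimap2 2.31 compared the 9 regions with 74 patch sequences of the assembly: alignments of at least 5 kb numbered 33 at Shh (identity up to 99.6%), 6 at Gli3 (98.3%), 4 at Hhip (96.6%) and 0 at the other 6 genes, and their effect on the sites was not tested. Overlap means at least 1 shared base, and covered shares count bases. The functions were tested on simulated data. Columns of per-library values numbered 0, and no test was made.

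The genes, the other pathway genes and the markers were chosen with earlier results of these data known. Named beside the 9 genes were the 4 other pathway genes with the highest covered TSS windows (ties by body), up to 4 with no site in body or flanks, protein-coding neighbours with a TSS within 50 kb, and Lmbr1. Csnk1a1, Sufu, Kif7, Scube1, Boc, Gas1, Rnf32 and Mnx1 were named after their values had been seen. Alternatives were sites closer than 1 or 5 kb joined, sites of at least 500 bp or 1 kb, TSS windows of 500 bp or 2 kb, protein-coding transcripts, and flanks of 20 or 100 kb.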

Additional observations from a re-analysis of the deposited data

How the results depend on the processing

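Of 56 alternative values, 53 kept their direction and stayed within 1.5 times the reported value, and none reversed. The difference between ligands and other genes over body and flanks, 21.1 percentage points, was 60.1 with 20 kb and 7.75 with 100 kb on either side, where the flanks outweigh short bodies by construction. The number of protein-coding genes with a site within 1 kb of a TSS, 6912, was 4403 with sites of at least 1 kb alone, which leaves fewer sites by construction. The count of 7 Hedgehog genes with such a site was 6 to 7, since Gli2 was lost with a window of 500 bp and with sites of at least 1 kb.

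No paired analysis was possible because replicates were not kept apart in the deposited positions, and leaving out a replicate was not run. One list without depth limits all values. Neither the strength of the mark nor its change with dTAG was measured. Covered shares rest on the borders the peak caller set.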
